A study of Mus musculus with 8 samples.

Results

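The antioxidant enzymes and glutathione transferases of the retinal pigment epithelium (RPE) were taken by gene symbol: superoxide dismutases and catalase (Sod, Cat), glutathione peroxidases (Gpx), peroxiredoxins and sulfiredoxin (Prdx, Srxn1), thioredoxins and their reductases (Txn, Txnrd), glutaredoxins (Glrx), the enzymes that make, recycle or use glutathione (Gclc, Gclm, Gsr, Glo1), soluble and microsomal glutathione transferases (Gst, Mgst), and the regulators and classical target Nfe2l2, Keap1 and Nqo1. Of 31053 genes in the deposited files, 60 matched these symbols. A gene was tested where its level, the count divided by the total of the library and given per 1000000 counts (CPM), reached 1 in 4 or more of the 8 libraries, and 51 of the 60 did, among 12889 genes tested in all. RPE was peeled from the eyes of Bbs8-/- mice and Bbs8+/+ littermates of the C57/Bl6 strain at postnatal day 29, without treatment, and the sex was not determined. There were 4 libraries of each genotype, and the study counted each animal as a biological replicate. The deletion of Bbs8 (gene symbol Ttc8, a subunit of the BBSome that carries cargo in cilia) is present in every tissue of these mice and not only in the RPE.

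Reactive oxygen species arise in the RPE from light, oxygen from the choroid and the daily digestion of outer segments, which are rich in oxidisable fatty acids. Superoxide dismutases turn superoxide into hydrogen peroxide, which catalase, glutathione peroxidases and peroxiredoxins reduce to water. The glutathione and thioredoxin systems return glutathione peroxidases and peroxiredoxins to their reduced form at the cost of NADPH. Glutathione transferases join glutathione to reactive lipid products and foreign compounds. Many of these genes are targets of the transcription factor NRF2 (Nfe2l2), which KEAP1 holds in check, and which binds antioxidant response elements in their promoters.

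Between 2389835 and 3093428 counts fell on genes in a library, so that 3 counts, taken as the limit of detection, corresponded to 0.970 to 1.26 CPM. Ttc8 stood at 35.5, 53.0, 58.9 and 43.1 CPM in Bbs8+/+ libraries 1 to 4 and at 6.16, 1.79, 5.60 and 5.24 CPM in Bbs8-/- libraries 1 to 4 (log2 fold change -3.34 ± 0.29 SE, adjusted p = 2.47e-11) and was lower in every library labelled Bbs8-/- than in every Bbs8+/+ library. Bbs8+/+ library 1 stood apart: of 6253 genes with a mean of 20 CPM or more, 69 lay more than 2-fold below the other libraries of its genotype there, against 1 to 3 genes in the other Bbs8+/+ libraries and 6 to 21 in the Bbs8-/- libraries. Results that changed without it are given both ways. Markers of other cells moved with genotype. Over libraries, the summed level (CPM of all gene counts) of 29 photoreceptor genes was 69510 to 71520 in Bbs8+/+ and 31690 to 32610 in Bbs8-/-, with 20 genes lower and 6 higher. That of 21 lens genes was 2840 to 2994 and 398 to 457, with all 19 tested lower, and that of 11 erythrocyte genes was 5095 to 5498 and 2133 to 2328, with 5 of 7 lower and Epb42 at 0 in all libraries. Glial genes summed to 1060 to 1277 and 2356 to 2494, with 5 of 9 higher, and surface epithelium genes to 3.61 to 4.66 and 72.4 to 95.1, with 5 of 7 higher and Krt12 at 0 in all libraries. RPE genes, the labelled cell type, summed to 40980 to 42240 and 51970 to 55560, with 6 of 18 higher and 4 lower, and melanocyte genes to 174 to 213 and 250 to 277, with 1 of 4 higher. These 7 lists did not overlap between genotypes (exact permutation p = 0.0286 for each, the smallest that 4 against 4 can give). All marker lists were chosen with earlier results of these data known, so that their p-values only describe the separation. Endothelial genes (32.9 to 40.9 and 37.2 to 44.6, no gene called), fibroblast genes (1083 to 1478 and 1113 to 1307, 2 lower), microglial genes (335 to 422 and 318 to 371, no gene called) and inner retinal genes (619 to 655 and 594 to 688, 1 lower) overlapped (exact permutation p = 0.0571, 0.229, 0.4 and 0.914). The part of these other cells in the results that follow was not tested. In such tissue, fewer cells of a type and less RNA per cell cannot be told apart.

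In Bbs8-/- RPE, 9 antioxidant genes changed, and the 3 with the largest changes were the glutathione transferases Gsta3, Mgst1 and Mgst3. At an adjusted p under 0.05 (edgeR quasi-likelihood test, adjusted over all genes tested), these were 9 of the 51 genes (17.65%), against a background of 12.3% of all genes tested. Of these, 7 were up-regulated (13.73%, background 5.46%) and 2 were down-regulated (3.922%, background 6.8%). The up-regulated genes, in order of fold change, were Gsta3, Mgst1, Mgst3, Gsr, Gstm5, Gpx4 and Glo1, and the down-regulated genes were Gstm1 and Gstm2. At an unadjusted p under 0.05, 11 were higher and 7 lower. In 11 of the 51 genes every Bbs8-/- library lay on the same side of every Bbs8+/+ library (21.57%), against 16.0% of all genes tested. The median log2 fold change of the 51 genes was 0.03, beside 0.02 for all genes tested, and 30 lay above 0 and 21 below. Without TMM factors, when libraries were scaled by their size only, 10 of the 51 genes were up-regulated and none down-regulated, while over all genes the split moved from 704 up-regulated and 877 down-regulated to 1005 and 657.

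**Figure D1:**
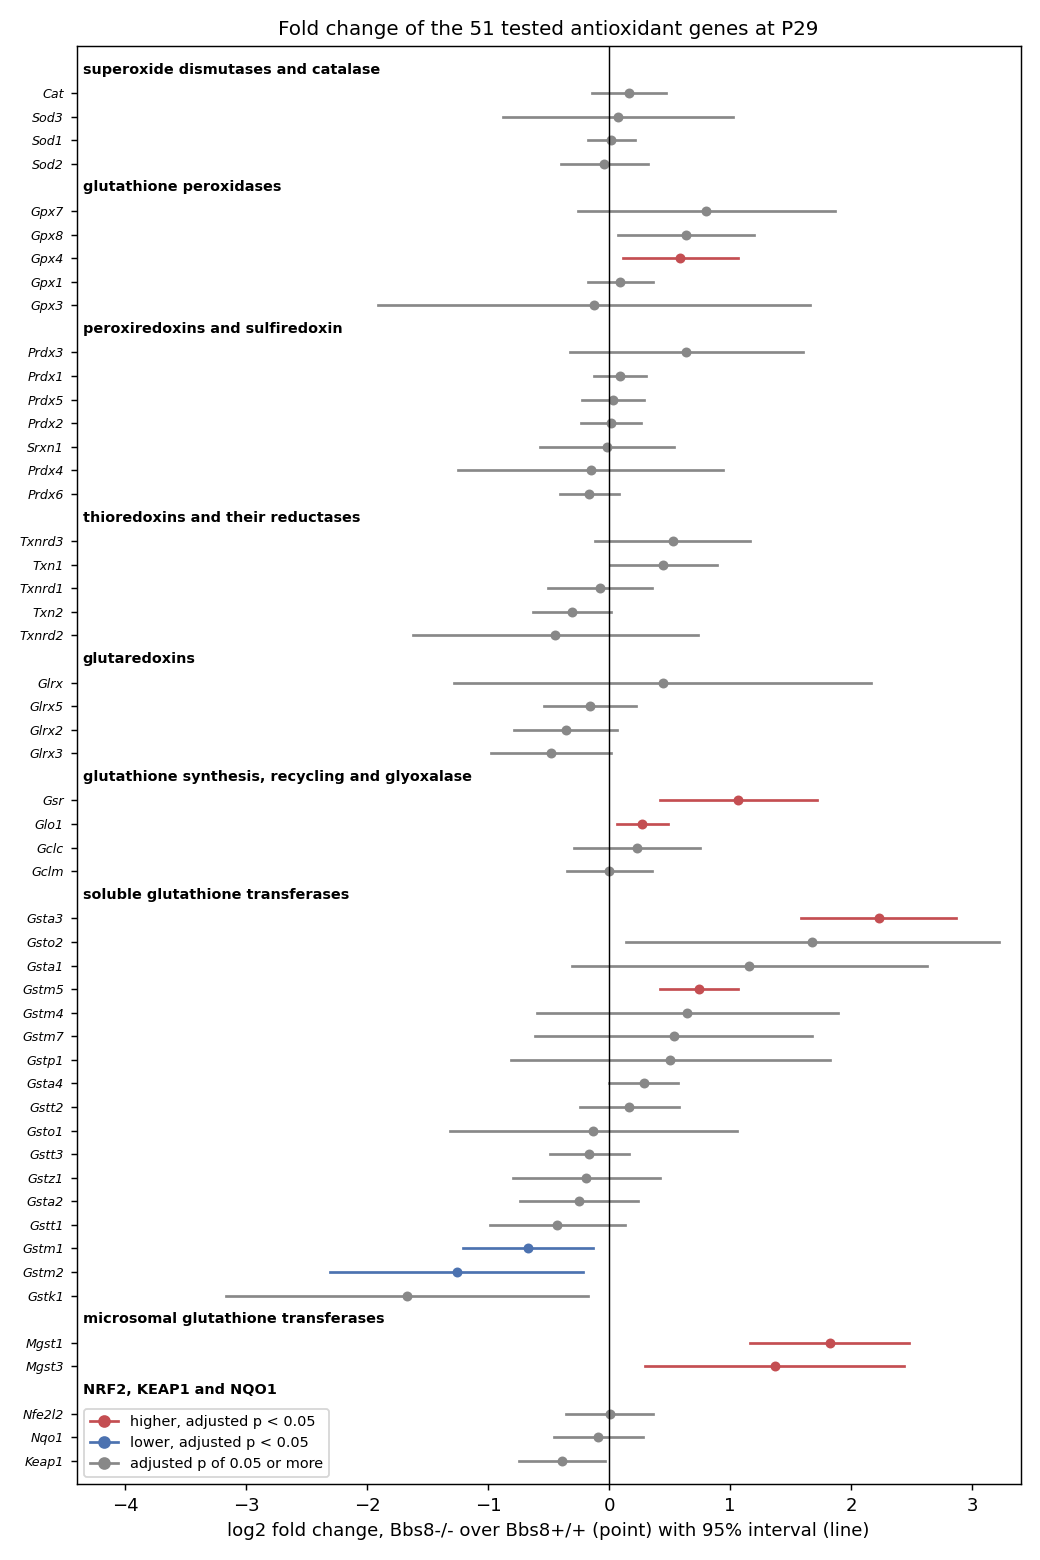
Log2 fold change of Bbs8-/- over Bbs8+/+ RPE (x axis) for the 51 tested antioxidant genes, grouped by role on the y axis, with points for estimates and lines for 95% intervals (n = 4 libraries per genotype). The 7 red genes lie right of 0, with Gsta3 farthest at 2.23, the 2 blue genes lie left of it, and the 42 grey genes did not pass the test.

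Most of the abundant antioxidant enzymes did not pass the test. QuantSeq reads come from the 3′ end of a transcript, so that levels are in CPM of 3′ reads, which are not divided by transcript length. Sod1 had the highest mean level of all, 762 CPM over the 8 libraries, the lowest was 3.28 CPM for Gpx3, and the median gene had 33.0 CPM. Of the 21 genes with a mean of 50 CPM or more, 3 were up-regulated and none was down-regulated (14.29%), whereas 29.73% of all genes at that level were mis-regulated. At an unadjusted p under 0.05, 5 of these 21 were higher and 2 lower. Of the 30 less abundant genes, 4 were up-regulated and 2 down-regulated (20%), beside 6.29% of all genes at that level. Among the 42 genes that did not pass the test, 17 had a 95% interval within a 1.5-fold change in either direction, so that a larger change was outside the interval for these and not for the others.

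**Figure D2:**
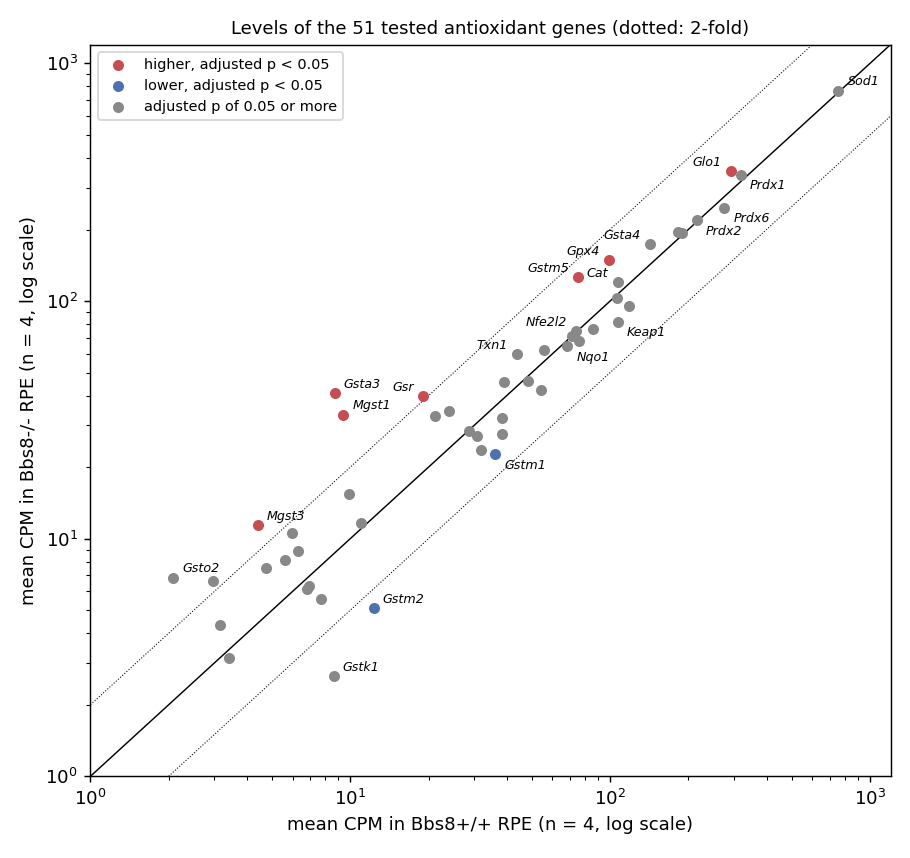
Mean level in Bbs8+/+ RPE (x axis) against Bbs8-/- RPE (y axis), both in CPM on a log scale, of the 51 tested genes (n = 4 libraries per genotype); the solid line marks equal levels and the dotted lines a 2-fold difference. The abundant genes from Cat to Sod1 lie between the dotted lines, Gsta3, Mgst1, Mgst3, Gsr and, without a call, Gsto2 and Gsta1 lie above the upper one, and Gstm2 and, without a call, Gstk1 lie below the lower one.

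Sequences are shown for the genes that hold the core letters of the antioxidant response element, TGACNNNGC, on either strand of the promoter, defined as 250 bases before to 50 bases after the annotated start (RefSeq, GRCm38.p6). They are given because the genes that passed the test and those that did not can be compared by them. These letters were found in 10 of the 45 tested genes with a promoter in the RefSeq table (22.2%), in 14.0% of the 27025 genes of that table and in 12.4% of its 32851 promoters. Of the 10 genes, 3 were up-regulated, none was down-regulated and the median log2 fold change was 0.06. Of the 35 without the letters, 3 were up-regulated, 2 were down-regulated and the median was -0.04. Another 6 tested genes, among them the up-regulated Gsr, had no promoter in that table and are not in this comparison. A match is a description of the letters and not a binding site. Each site is printed with 10 bases on either side, read on the strand that holds TGACNNNGC, and capitals mark the motif. The up-regulated genes come first.
Gsta3: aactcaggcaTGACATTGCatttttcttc
Gstm5: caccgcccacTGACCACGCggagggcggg
Mgst1: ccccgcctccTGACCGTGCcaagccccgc
The other sites belonged to genes that did not pass the test. They include the regulator itself, Nfe2l2.
Nfe2l2: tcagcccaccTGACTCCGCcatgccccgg
Gclm: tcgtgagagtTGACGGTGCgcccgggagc
Srxn1: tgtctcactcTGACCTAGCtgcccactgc
Txnrd1: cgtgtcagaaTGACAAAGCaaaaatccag
Prdx1: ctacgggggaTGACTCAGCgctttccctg
Sod1: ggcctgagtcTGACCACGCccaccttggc
Gstm7: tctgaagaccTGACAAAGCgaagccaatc

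The site began 121 bases before the start in Gsta3, 42 in Gstm5 and, on the opposite strand, 56 in Mgst1. The 250 bases before the start of these 3 genes are printed on the strand of the gene, with the motif in capitals, which for Mgst1 is its reverse complement. They lie at chr1:21240335-21240584, chr3:107895604-107895853 and chr6:138140277-138140526, all on the plus strand. The start here is that of RefSeq. The gene coordinates given below are from GENCODE, which starts Gstm5 at 107895821 and Mgst1 at 138140316, inside these stretches. A second Mgst1 promoter in the table did not hold the letters. Of the genes that did not pass the test, Gstm7 and Txnrd1 also had a promoter without them. The Txnrd1 site, at 82859114 on chromosome 10, lies inside the GENCODE gene, which starts at 82833951.
Gsta3: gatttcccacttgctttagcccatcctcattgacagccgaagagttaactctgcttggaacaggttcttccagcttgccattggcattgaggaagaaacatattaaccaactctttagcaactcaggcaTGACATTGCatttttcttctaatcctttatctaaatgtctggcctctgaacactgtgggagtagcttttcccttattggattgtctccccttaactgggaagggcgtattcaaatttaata
Gstm5: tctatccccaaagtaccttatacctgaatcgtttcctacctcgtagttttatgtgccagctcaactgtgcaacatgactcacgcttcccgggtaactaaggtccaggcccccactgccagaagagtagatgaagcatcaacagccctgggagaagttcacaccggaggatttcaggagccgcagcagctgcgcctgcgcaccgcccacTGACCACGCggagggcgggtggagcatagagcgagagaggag
Mgst1: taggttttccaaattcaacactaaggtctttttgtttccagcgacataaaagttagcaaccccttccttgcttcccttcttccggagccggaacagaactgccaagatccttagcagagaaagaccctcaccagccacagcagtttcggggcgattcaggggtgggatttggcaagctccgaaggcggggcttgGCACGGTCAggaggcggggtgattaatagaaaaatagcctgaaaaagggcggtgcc

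Soluble glutathione transferases are grouped into classes by sequence, and 17 of 22 were tested. In Bbs8-/- RPE, 2 were up-regulated, 2 were down-regulated and 13 did not pass the test. Their summed level was 554 ± 12.3 CPM (SD, n = 4) in Bbs8+/+ and 638 ± 37.9 CPM in Bbs8-/-, with 536 to 563 and 594 to 686 CPM in single libraries, which did not overlap. The alpha class, which acts on lipid hydroperoxides and on aldehydes of lipid peroxidation, held the largest change. Gsta3 (ENSMUSG00000025934, chromosome 1, 21240589 to 21265661) read 10.5, 8.95, 9.81 and 5.58 CPM in Bbs8+/+ libraries 1 to 4 and 38.2, 29.7, 46.0 and 49.97 CPM in Bbs8-/- libraries 1 to 4. All Bbs8-/- libraries lay far above all Bbs8+/+ libraries. Gsta3 was 4.68-fold higher (95% interval 3.00 to 7.31, log2 fold change 2.23 ± 0.26 SE, adjusted p = 2.87e-08). Its near relatives at chromosome 9 changed less and were not called in the main fit. Gsta4, which conjugates 4-hydroxynonenal, is the most abundant of the soluble transferases tested and read 165, 148, 118 and 136 CPM in Bbs8+/+ and 161, 159, 208 and 166 CPM in Bbs8-/- (log2 fold change 0.29 ± 0.12 SE, adjusted p = 0.112). The genotypes overlapped through Bbs8+/+ library 1, without which Gsta4 passed the test (0.37, adjusted p = 0.0188), as it did with scaling by size only (0.38, adjusted p = 0.0253). Gsta2 had log2 fold change -0.24 (adjusted p = 0.516) and Gsta1 1.16 (adjusted p = 0.242). For Gsta1 the genotypes did not overlap, with 0.339 to 4.09 CPM in Bbs8+/+ and 4.80 to 8.21 CPM in Bbs8-/-. Gsta1 levels are uncertain, since 44.4% of 100-base windows in the last 300 bases of its transcripts also occur in the predicted gene Gm3776 and reads without a unique place were not counted. The ratio of Gsta3 to Gsta2, both in CPM of 3′ reads, was 0.293, 0.231, 0.214 and 0.172 in Bbs8+/+ and 1.24, 1.00, 1.55 and 1.30 in Bbs8-/-, so that Gsta3 went from below Gsta2 to the level of Gsta2 or above it. The alpha class as a whole summed to 192 ± 16.8 and 253 ± 27.6 CPM.

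The mu class changed in both directions. Its 7 genes lie side by side on chromosome 3, from 107895821 to 108044894, and 5 were tested. Gstm5 (ENSMUSG00000004032, chromosome 3, 107895821 to 107898686) read 66.7, 72.7, 78.1 and 82.9 CPM in Bbs8+/+ and 143, 133, 122 and 106 CPM in Bbs8-/-. Gstm1 (ENSMUSG00000058135, chromosome 3, 108012255 to 108017973) read 32.8, 39.2, 32.3 and 40.5 CPM in Bbs8+/+ and 22.6, 28.0, 17.2 and 23.1 CPM in Bbs8-/-. Gstm2 (ENSMUSG00000040562, chromosome 3, 107981702 to 107986453) read 15.9, 11.6, 11.04 and 10.8 CPM in Bbs8+/+ and 1.64, 9.68, 5.20 and 3.84 CPM in Bbs8-/-. None of the 3 overlapped between genotypes, with Gstm5 higher and Gstm1 and Gstm2 lower in every Bbs8-/- library. Gstm5 was 1.68-fold higher (95% interval 1.34 to 2.09, log2 fold change 0.74 ± 0.13 SE, adjusted p = 5.95e-05). Gstm1 fell to 0.629 of its Bbs8+/+ level (95% interval 0.434 to 0.911, log2 fold change -0.67 ± 0.22 SE, adjusted p = 0.037) and Gstm2 to 0.418 (0.202 to 0.864, -1.26 ± 0.43 SE, adjusted p = 0.0471). The ratio of Gstm5 to Gstm1 was 2.03, 1.86, 2.42 and 2.05 in Bbs8+/+ and 6.31, 4.77, 7.09 and 4.58 in Bbs8-/-, which also did not overlap. Gstm4 and Gstm7 (log2 fold change 0.65 and 0.53, adjusted p = 0.498 and 0.554) did not pass the test, and the class summed to 134 ± 9.38 and 170 ± 19.9 CPM. The calls of Gstm1 and Gstm2 were near the threshold. Gstm1 lost its call without Bbs8+/+ library 2 (-0.63, adjusted p = 0.101) or 4 (-0.62, 0.119) and without Bbs8-/- library 1 (-0.67, 0.0583), 3 (-0.56, 0.121) or 4 (-0.68, 0.065), and Gstm2 lost its call without any single library but Bbs8-/- library 2 (-0.98 to -1.32 where lost, adjusted p = 0.0671 to 0.137). With scaling by library size alone, neither passed (adjusted p = 0.0773 for Gstm1 and 0.0698 for Gstm2).

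The other soluble classes held no call with the quasi-likelihood test of edgeR or with DESeq2, and at an unadjusted p under 0.05 in the former 1 gene was higher and 1 lower. Theta-class transferases summed to 173 ± 7.41 CPM in Bbs8+/+ and 163 ± 16.6 CPM in Bbs8-/-, and log2 fold changes were -0.43 for Gstt1, 0.17 for Gstt2 and -0.16 for Gstt3 (adjusted p = 0.259, 0.604 and 0.522). The largest changes without a call were those of 2 weakly expressed genes. Gstk1, the kappa-class transferase of mitochondria and peroxisomes, read 4.06, 5.97, 8.18 and 16.4 CPM in Bbs8+/+ and 0, 2.15, 2.80 and 5.59 CPM in Bbs8-/- (log2 fold change -1.67 ± 0.61 SE, adjusted p = 0.07). Gsto2, an omega-class enzyme that reduces dehydroascorbate, read 3.72, 1.49, 1.64 and 1.49 CPM in Bbs8+/+ and 6.57, 2.15, 6.40 and 12.2 CPM in Bbs8-/- (1.68 ± 0.63 SE, adjusted p = 0.0778). The genotypes overlapped in each, and without Bbs8+/+ library 1 both passed the test (-1.90, adjusted p = 0.0233, and 2.12, adjusted p = 0.0416). Gstk1 also passed without Bbs8-/- library 4 (-2.34, adjusted p = 0.0266), and Gsto2 without Bbs8-/- library 2 (1.98, adjusted p = 0.0295). With all 8 libraries, the likelihood ratio test of edgeR called both (adjusted p = 0.0315 for Gstk1 and 0.0411 for Gsto2), and Gstk1 was also called with the replicate block (adjusted p = 0.0394) and without the filter (adjusted p = 0.0318). Log2 fold changes of Gsto1, Gstp1 and Gstz1 were -0.13, 0.51 and -0.19 (adjusted p = 0.918, 0.64 and 0.727). Gstp1 is uncertain, since 85.2% of windows at its transcript ends are shared with Gstp2 and the pseudogene Gstp-ps.

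Both microsomal glutathione transferases that were tested were up-regulated. These are membrane enzymes with transferase and peroxidase activity, and Mgst1 protects membranes against lipid peroxidation. Mgst1 (ENSMUSG00000008540, chromosome 6, 138140316 to 138156755) read 6.09, 11.6, 11.04 and 8.92 CPM in Bbs8+/+ and 39.4, 33.0, 27.2 and 33.2 CPM in Bbs8-/-. All Bbs8-/- libraries lay above all Bbs8+/+ libraries. Mgst1 was 3.54-fold higher (95% interval 2.24 to 5.58, log2 fold change 1.82 ± 0.27 SE, adjusted p = 2.87e-06). Mgst3 (ENSMUSG00000026688, chromosome 1, 167371966 to 167393841) read 2.71, 5.60, 4.91 and 4.46 CPM in Bbs8+/+ and 9.44, 14.7, 5.60 and 15.7 CPM in Bbs8-/-. The genotypes only just did not overlap, since Bbs8-/- library 3 was level with Bbs8+/+ library 2. Mgst3 was 2.58-fold higher (95% interval 1.23 to 5.41, log2 fold change 1.37 ± 0.44 SE, adjusted p = 0.0324), and this rested on 8 to 45 counts in a library. It lost its call without Bbs8+/+ library 1 (1.19, adjusted p = 0.0846), 3 (1.42, 0.0536) or 4 (1.37, 0.0745) and without Bbs8-/- library 2 (1.22, 0.114) or 4 (1.17, 0.139). The summed level of the microsomal enzymes was 13.8 ± 3.70 CPM in Bbs8+/+ and 44.7 ± 7.995 CPM in Bbs8-/-.

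**Figure D3:**
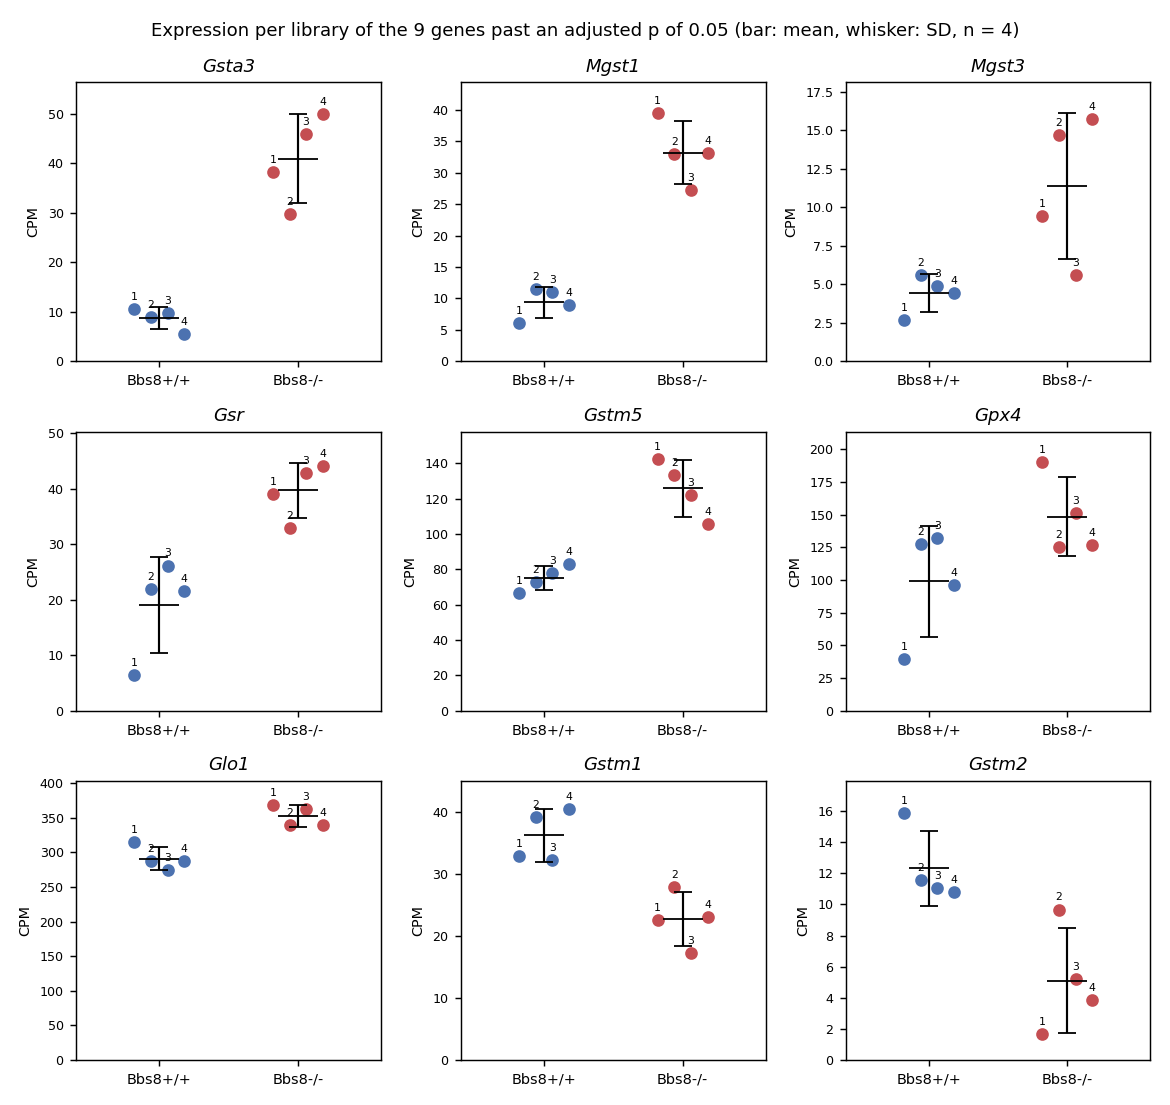
Level in CPM (y axis, from 0) of the 9 genes past an adjusted p of 0.05 in each library (points, numbered by library) of Bbs8+/+ (blue) and Bbs8-/- (red) RPE, with the mean (bar) and SD (whisker, n = 4). The genotypes are apart in every panel except Gpx4, where Bbs8+/+ libraries 2 and 3 at 128 and 132 CPM lie within the range of Bbs8-/-. Bbs8+/+ library 1 is the lowest point for Gpx4, Gsr, Gstm5, Mgst1 and Mgst3.

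Of the enzymes that make, recycle or use glutathione, 2 of 4 were up-regulated and the summed level was 420 ± 13.4 CPM in Bbs8+/+ and 510 ± 32.6 CPM in Bbs8-/-, without overlap. Gsr, glutathione reductase, restores reduced glutathione with NADPH. Gsr (ENSMUSG00000031584, chromosome 8, 33652523 to 33698163) read 6.43, 22.01, 26.2 and 21.6 CPM in Bbs8+/+ and 39.0, 33.0, 42.8 and 44.0 CPM in Bbs8-/-, which did not overlap although Bbs8+/+ library 1 was far below its group. It was 2.10-fold higher (95% interval 1.34 to 3.29, log2 fold change 1.07 ± 0.27 SE, adjusted p = 0.00433), and 0.77 without that library (adjusted p = 0.0149). Glo1, glyoxalase 1, detoxifies methylglyoxal with glutathione and was the most abundant gene of this role. Glo1 (ENSMUSG00000024026, chromosome 17, 30584936 to 30626871) read 315, 288, 274 and 287 CPM in Bbs8+/+ and 369, 339, 363 and 340 CPM in Bbs8-/-. Every Bbs8-/- library was higher than every Bbs8+/+ library by a narrow margin. Glo1 was 1.21-fold higher (95% interval 1.05 to 1.40, log2 fold change 0.28 ± 0.09 SE, adjusted p = 0.0295), which lost its call without Bbs8+/+ library 2 (0.27, adjusted p = 0.0867), 3 (0.24, 0.105) or 4 (0.26, 0.0945) and without Bbs8-/- library 1 (0.25, 0.0755) or 3 (0.26, 0.0799). With all libraries, the likelihood ratio test of edgeR did not call Glo1 (0.28, adjusted p = 0.0557). The subunits of glutamate-cysteine ligase, which sets the rate of glutathione synthesis, had log2 fold changes of 0.23 (Gclc, adjusted p = 0.575, 95% interval -0.29 to 0.75) and 0.00 (Gclm, adjusted p = 0.995, -0.35 to 0.36).

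Among glutathione peroxidases, 1 of 5 tested genes was up-regulated. Gpx4, which reduces phospholipid hydroperoxides inside membranes, has a selenocysteine codon. Gpx4 (ENSMUSG00000075706, chromosome 10, 80047166 to 80056439) read 39.6, 128, 132 and 96.3 CPM in Bbs8+/+ and 190, 125, 151 and 127 CPM in Bbs8-/-. The genotypes overlapped, and Bbs8+/+ library 1 was the lowest of all. Gpx4 was 1.504-fold higher (95% interval 1.083 to 2.09, log2 fold change 0.59 ± 0.19 SE, adjusted p = 0.0389), but 0.32 without Bbs8+/+ library 1 (adjusted p = 0.0942). The call was also lost without Bbs8+/+ library 4 (0.58, 0.0955) and without Bbs8-/- library 1 (0.45, 0.199) or 3 (0.58, 0.094), and with DESeq2 (0.59, 0.351). In addition, 83.3% of windows at its transcript ends occur in the pseudogene Gpx4-ps2. Gpx1, the cytosolic enzyme and the most abundant glutathione peroxidase, read 152, 198, 185 and 199 CPM in Bbs8+/+ and 161, 199, 215 and 204 CPM in Bbs8-/-, which overlapped almost wholly (log2 fold change 0.09 ± 0.11 SE, adjusted p = 0.693). Gpx8, an enzyme of the endoplasmic reticulum, read 21.3, 20.9, 18.8 and 23.4 CPM in Bbs8+/+ and 28.3, 24.4, 38.0 and 40.9 CPM in Bbs8-/-, which did not overlap (0.64 ± 0.23 SE, adjusted p = 0.0636). It passed the test without Bbs8-/- library 2 (0.76, adjusted p = 0.0326) and with scaling by size only (0.73, adjusted p = 0.0295). Gpx7 and Gpx3 had log2 fold changes of 0.80 and -0.12 (adjusted p = 0.271 and 0.952). Of the 7 genes with an annotated selenocysteine codon (Gpx1 to Gpx4 and Txnrd1 to Txnrd3), 6 were tested, 1 was up-regulated and the median log2 fold change was 0.01. The 45 tested genes without one had a median of 0.03, with 6 up-regulated and 2 down-regulated.

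No superoxide dismutase, catalase, peroxiredoxin or sulfiredoxin passed the test in either direction with edgeR or DESeq2, and with edgeR none did at an unadjusted p under 0.05. These 11 genes included the most abundant of all. Sod1, the cytosolic copper and zinc superoxide dismutase, read 845, 706, 678 and 799 CPM in Bbs8+/+ and 792, 715, 726 and 836 CPM in Bbs8-/-, with full overlap (log2 fold change 0.02 ± 0.08 SE, 95% interval -0.17 to 0.21, adjusted p = 0.927). Prdx1, a cytosolic peroxiredoxin, read 317, 331, 310 and 313 CPM in Bbs8+/+ and 377, 302, 347 and 331 CPM in Bbs8-/-, and the genotypes overlapped here too (0.09 ± 0.09 SE, -0.12 to 0.31, adjusted p = 0.589). Log2 fold changes were -0.04 for mitochondrial Sod2, 0.07 for extracellular Sod3 and 0.17 for Cat. They were 0.02 for Prdx2, 0.64 for mitochondrial Prdx3, -0.15 for Prdx4 of the endoplasmic reticulum, 0.03 for Prdx5, -0.16 for Prdx6 and -0.02 for Srxn1, which repairs overoxidised peroxiredoxins (adjusted p from 0.345 to 0.979 over these 9 genes). Summed levels were 981 ± 85.1 and 1002 ± 64.4 CPM for dismutases with catalase, and 1043 ± 31.7 and 1047 ± 56.5 CPM for peroxiredoxins with Srxn1.

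Thioredoxins, their reductases and glutaredoxins held no call either, with the quasi-likelihood test of edgeR or with DESeq2. At an unadjusted p under 0.05 with edgeR, 1 gene of the thioredoxin system was higher and 1 lower, and 2 glutaredoxins were lower. Txn2, the mitochondrial thioredoxin and the most abundant of its role, read 142, 107, 109 and 114 CPM in Bbs8+/+ and 112, 77.4, 102 and 91.2 CPM in Bbs8-/-, with overlap (log2 fold change -0.31 ± 0.13 SE, adjusted p = 0.142). The cytosolic Txn1 gave 0.45 ± 0.18 SE (adjusted p = 0.106) and passed the test without Bbs8+/+ library 3 (0.62, adjusted p = 0.0302) and, with all libraries, when they were scaled by size only (0.54, adjusted p = 0.0453). Txnrd3 gave 0.53 ± 0.26 SE (adjusted p = 0.217) and passed without Bbs8+/+ library 1 (0.89, adjusted p = 0.0132). Txnrd1 and Txnrd2, the cytosolic and mitochondrial reductases, had log2 fold changes of -0.07 and -0.44 (adjusted p = 0.865 and 0.651). Glrx5, a mitochondrial glutaredoxin of iron-sulfur cluster assembly, read 77.5, 76.1, 74.0 and 76.2 CPM in Bbs8+/+ and 62.4, 77.8, 48.0 and 83.9 CPM in Bbs8-/-, so that the spread was wider in Bbs8-/- and the groups overlapped (-0.16 ± 0.16 SE, adjusted p = 0.613). Glrx3 read 43.3, 35.1, 43.7 and 31.6 CPM in Bbs8+/+ and 28.3, 26.5, 27.6 and 28.0 CPM in Bbs8-/-, which did not overlap, but the test was not passed (-0.48 ± 0.20 SE, adjusted p = 0.133). Glrx2 and Glrx had log2 fold changes of -0.36 and 0.44 (adjusted p = 0.206 and 0.78). The 4 glutaredoxins summed to 172 ± 7.28 CPM in Bbs8+/+ and 142 ± 13.0 CPM in Bbs8-/-, the only role in which every Bbs8-/- sum (125 to 156) was below every Bbs8+/+ sum (162 to 179).

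The regulators and Nqo1 did not pass the quasi-likelihood test of edgeR or the test of DESeq2, and at an unadjusted p under 0.05 with edgeR 1 of the 3 was lower. Keap1, which targets NRF2 for degradation, read 127, 116, 96.9 and 88.5 CPM in Bbs8+/+ and 73.5, 65.2, 102 and 86.3 CPM in Bbs8-/-, where library 3 lay within the Bbs8+/+ range (log2 fold change -0.39 ± 0.14 SE, adjusted p = 0.0731). It passed without Bbs8+/+ library 4 (-0.48, adjusted p = 0.0466) or Bbs8-/- library 3 (-0.51, adjusted p = 0.0265) and, with all libraries, without the filter (-0.40, adjusted p = 0.0411). Nfe2l2 had log2 fold change 0.01 ± 0.15 SE (95% interval -0.35 to 0.36, adjusted p = 0.989). Nqo1, a quinone reductase widely used as a readout of NRF2, had -0.09 ± 0.15 SE (-0.46 to 0.28, adjusted p = 0.801). Gclc, Gclm, Srxn1 and Txnrd1 gave no call either. Of the genes called, Gsta3, Mgst1, Mgst3, Gsr, Gstm5, Gpx4 and Glo1 were up-regulated, and Gstm1 and Gstm2 were down-regulated. NRF2 activity was not measured, and its part in these values was not tested.

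Bbs8+/+ library 1 touched several of these results. Without it, 8 genes were up-regulated and 2 down-regulated, but they were partly other genes: Gpx4, Mgst3 and Gstm2 (-1.11, adjusted p = 0.135) were no longer called, and Txnrd3, Gsta4, Gsto2 and Gstk1 were. Gsta3 (2.34), Mgst1 (1.66), Gstm5 (0.69), Gsr (0.77), Glo1 (0.32) and Gstm1 (-0.71) were called with and without it. Of the 9 calls, those of Gsta3, Mgst1, Gstm5 and Gsr were kept in each of 15 other settings, which left out each library in turn or changed the scaling, filter, block or test. Other single libraries moved the counts too. Without Bbs8+/+ library 4, 4 antioxidant genes were up-regulated and 1 was down-regulated. The calls over all genes fell as well. From 704 up-regulated and 877 down-regulated with all libraries, they went to 643 and 856 without Bbs8+/+ library 1. Without Bbs8+/+ library 4 they were 542 and 708. The number of down-regulated antioxidant genes was 0 without Bbs8+/+ library 2 or Bbs8-/- library 1, and 1 without Bbs8+/+ library 3 or Bbs8-/- libraries 3 or 4.

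**Figure D4:**
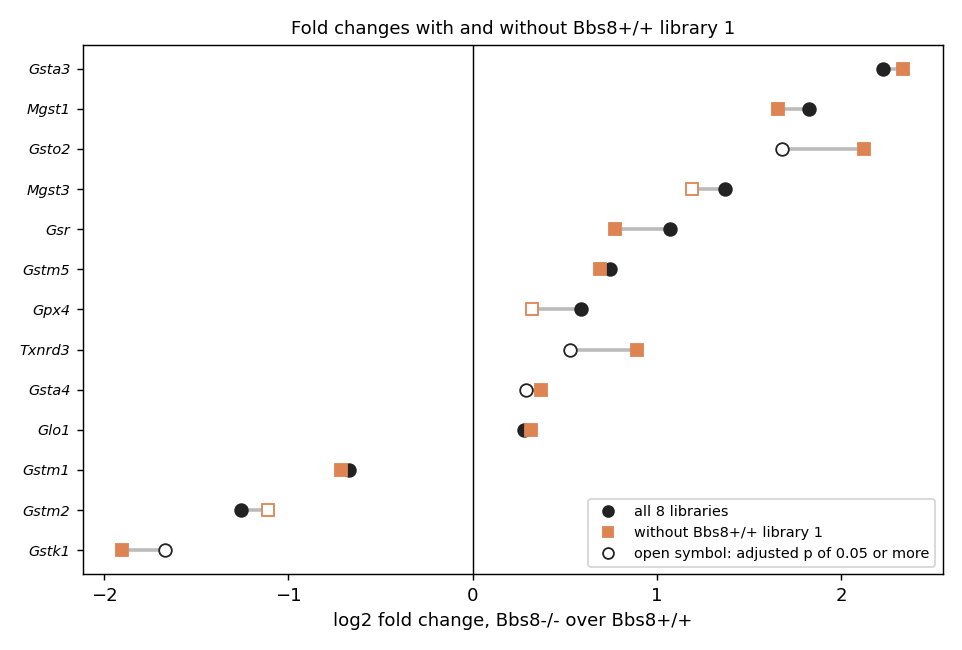
Log2 fold change of Bbs8-/- over Bbs8+/+ RPE (x axis) with all 8 libraries (circles) and without Bbs8+/+ library 1 (squares) for the 13 genes past an adjusted p of 0.05 in either fit (filled: past it, open: not). Gpx4 moves from 0.59 to 0.32 and Gsr from 1.07 to 0.77, and no gene crosses 0.

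Among other genes of glutathione and redox metabolism, few were down-regulated. Of 96 such genes (glutathione salvage and transport, NADPH supply, selenoprotein synthesis, other NRF2 targets and regulators), 90 were tested. Of these, 6 were up-regulated (6.667%, background 5.46%) and 1 was down-regulated (1.111%, background 6.8%). In both directions together this was 7.778% (background 12.3%), and the median log2 fold change was 0.04. Slc1a1, a glutamate and cysteine transporter that feeds glutathione synthesis, read 302, 242, 248 and 214 CPM in Bbs8+/+ and 442, 370, 388 and 412 CPM in Bbs8-/-, without overlap (log2 fold change 0.68 ± 0.10 SE, adjusted p = 1.59e-06). Nfe2l1, a relative of NRF2, rose by 0.42 ± 0.11 SE (adjusted p = 0.00465) and Selenos, a selenoprotein of the endoplasmic reticulum, by 0.42 ± 0.10 SE (adjusted p = 0.00475). Abcc1, which exports glutathione conjugates, rose by 0.48 (adjusted p = 0.0247), Txnip, an inhibitor of thioredoxin, by 0.70 (adjusted p = 0.0437) and Sesn3, a sestrin, by 0.29 (adjusted p = 0.0401). Foxo3, a transcription factor of Sod2 and Cat, fell by 0.47 on the log2 scale (adjusted p = 0.0324). The calls of Slc1a1, Nfe2l1 and Selenos were kept without each single library. Each of the other 4 calls was lost without some single libraries. Abcc1 lost its call without Bbs8+/+ library 4 (0.41, adjusted p = 0.113) and without Bbs8-/- library 2 (0.39, 0.124) or 4 (0.46, 0.0688). Txnip lost it without Bbs8+/+ library 1 (0.48, adjusted p = 0.165), 3 (0.70, 0.0782) or 4 (0.74, 0.0741) and without Bbs8-/- library 1 (0.61, 0.131) or 2 (0.57, 0.175). Sesn3 lost it without Bbs8+/+ libraries 1, 2 or 4 and Bbs8-/- libraries 1, 2 or 4 (0.25 to 0.30, adjusted p = 0.0654 to 0.129), and Foxo3 without Bbs8+/+ libraries 2 or 3 and Bbs8-/- libraries 1, 2 or 4 (-0.49 to -0.40, adjusted p = 0.0534 to 0.116). Among the abundant genes of this list that gave no call, log2 fold changes were Fth1 (0.08), Taldo1 (0.06), Ftl1 (0.23), Me1 (-0.12), Akr1a1 (0.07), Slc3a2 (0.09), Park7 (-0.09), Sqstm1 (0.12), Rbx1 (-0.01) and Cul3 (-0.25).

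The 9 genes of the family that were not tested were Gpx2, Gpx5, Gpx6, Gstm3, Gstm6, Gstp2, Gstp3, Gstt4 and Mgst2. Gpx2, Gpx6, Gstm3 and Gstp3 had no count in any library, which allows a level of up to 0.970 to 1.26 CPM, and the highest count of the others in a library was 6, of Gstm6. Inside the filter, 48 of 51 genes reached 1 CPM in all 8 libraries, and Gsta1, Gstk1 and Gstp1 in 7. No gene passed the filter through the libraries of 1 genotype alone.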

How the data were processed

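RNA of RPE isolated from 4 Bbs8+/+ and 4 Bbs8-/- mice at day 29 was sequenced with the QuantSeq 3′ kit, which reads transcripts from their 3′ end. The authors trimmed reads with BBDuk, aligned them with STAR to mm10 (Ensembl release 93) and deposited raw counts of uniquely aligned reads per gene from htseq-count. Reads without a unique place (32.8% to 34.5% of each file) or on no gene were left out, so that genes with near-identical copies lose reads. The share on no gene was 17.0% to 18.45% in Bbs8+/+ and 19.8% to 20.6% in Bbs8-/-, without overlap. Genes with a count did not overlap either, at 14115 to 14496 in Bbs8+/+ and 13657 to 14084 in Bbs8-/-. The part of these differences in the results was not tested. Symbols and coordinates came from GENCODE M21 (GRCm38) for 30934 of 31053 identifiers, and promoters from RefSeq (GRCm38.p6).

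Genes with 1 CPM or more in 4 or more libraries were tested with the quasi-likelihood test of edgeR 4.0.16 (limma 3.58.1, R 4.3.3), two-sided, with TMM factors and without a replicate block. The p-values were adjusted by Benjamini-Hochberg over all 12889 genes tested. TMM factors were 0.955 to 0.980 in Bbs8+/+ and 1.02 to 1.05 in Bbs8-/-, so that they differed by genotype. CPM values are on the TMM scale, except those of the filter and the marker sums, which use library totals. The SE is the log2 fold change divided by the square root of F, and 95% intervals use the residual degrees of freedom. Shared transcript ends were sought in windows of 100 bases within the last 300 bases of each coding transcript, in steps of 25. Alternatives were DESeq2 1.42.0, other scalings, filters, tests and thresholds, the replicate block, and leaving out each library. The scripts were tested on simulated data. The genes and lists were chosen with earlier results of these data known. Genes past an adjusted p of 0.05 and the most abundant gene of each role are given in every library, as are some others that were chosen after their values were seen. Selenocysteine codons were read from the annotation. Protein sequences were not used here. Limits of detection cover counting error only.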

Additional observations from a re-analysis of the deposited data

Results flagged for a closer look

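For 6 of 118 groups of 4 libraries, the gap of the highest or lowest library to its nearest neighbour exceeded Dixon's 95% limit for that gap as a share of the group's range. Chance flags about 1 in 20 groups, so that this number is near what chance gives. Gpx7 read 19.3 CPM in Bbs8-/- library 1 against 7.20 to 7.88 in the others. Srxn1 read 20.4 CPM in Bbs8+/+ library 3 against 30.2 to 32.2. Gsta2 read 38.4 CPM in Bbs8-/- library 4 against 29.6 to 30.8, and Gsta4 208 CPM in Bbs8-/- library 3 against 159 to 166. Bbs8+/+ library 1 was high for Gstm2 (15.9 CPM against 10.8 to 11.6) and for Gsto2 (3.72 CPM against 1.49 to 1.64).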

How the results depend on the processing

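No call of an antioxidant gene was reversed in any of 15 settings: 4 were kept in all of them and 5 were lost in at least 1, while 7 genes gained a call in at least 1. Of the antioxidant genes, 7 were up-regulated and 2 down-regulated. At an adjusted p of 0.01 this was 4 and 0, and 394 and 571 over all genes. The number down-regulated was 0 with scaling by library size alone, 4 without a filter beyond 1 count (where Gstk1 and Keap1 passed) and 1 with filterByExpr. Over all genes it was 657, 927 and 859 in these settings. Without each library in turn, 4 to 8 antioxidant genes were up-regulated and 0 to 2 down-regulated, and 542 to 643 and 708 to 856 over all genes. Of the other redox genes, 6 were up-regulated and 1 down-regulated, which became 3 and 0 at an adjusted p of 0.01. Down-regulated ones were 2 with DESeq2 and 0 with scaling by library size alone. Without each library, 3 to 6 were up-regulated and 0 to 2 down-regulated. The median log2 fold change of the antioxidant genes was -0.002 without Bbs8-/- library 1 and 0.12 with scaling by library size alone, where that of all genes was 0.11. Apart from the fewer samples and the stricter threshold, the cause of these changes was not tested. Same-numbered libraries of the genotypes did not deviate together (correlation of deviations -0.032 to 0.0067 over 12889 genes), so that no pairing by number was seen. Of these genes, 9603 had a mean under 50 CPM, where counting error adds to the deviations. The check therefore could not exclude pairing. With the replicate block, 6 antioxidant genes were up-regulated and 3 down-regulated, since Mgst3 was lost (adjusted p = 0.0619) and Gstk1 gained (adjusted p = 0.0394). Over all genes, the block gave 650 up-regulated and 827 down-regulated. Depth limits the 14 genes under 10 CPM, of which Mgst3 rests on 8 to 45 counts in a library.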
